A study of Mus musculus with 23 samples.

Results

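The 68 histone genes named Hist1h, Hist2h, Hist3h or Hist4h in the deposited table were followed through single cells of mouse bone marrow. They were chosen by symbol alone from 23536 gene rows, and no measured value entered the choice. Of these genes, 19 encode H2B, 18 H2A, 13 H4, 12 H3 and 6 the linker histone H1. The cells were sorted haematopoietic stem cells (HSC; lineage-negative, Kit, Sca1 and CD150 positive, CD48 negative) in 4 libraries, and cells taken apart by hand from small clumps of attached marrow cells in 17 libraries. The labels give no strain, age, animal, genotype or treatment for either group. Libraries are numbered in the order of the records, which pairs nothing, and most sorted libraries share a name stem and could be plates of 1 sort.

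Replication-dependent histone mRNAs are made in S phase, when new DNA has to be packaged, and in that form they are the metazoan mRNAs without a poly(A) tail. Their 3′ end is a short stem-loop bound by the stem-loop binding protein (Slbp), which is needed for their cleavage, translation and decay. Some of the same genes also make polyadenylated transcripts, by reading past the stem-loop to a downstream poly(A) signal, and such forms have been described in differentiating and non-dividing cells. CEL-seq primes on poly(A) and counts tagged 3′ ends, so the values here are taken as those of polyadenylated histone transcripts. The bulk of S-phase histone mRNA should lie outside the measurement. Whether each counted transcript carried a poly(A) tail was not tested. H1 binds the linker DNA between nucleosomes, while H2A, H2B, H3 and H4 form the core that the DNA wraps around.

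In the annotation (GENCODE M21, the same build as mm10), the histone stem-loop consensus was found in the transcripts of 42 of the 68 genes. In 21 genes the annotated transcript went on for at least 100 bases past the stem-loop, and 15 transcripts carried AATAAA or ATTAAA within their last 40 bases. The stem-loops of 4 genes that the results turn on, with 5 bases on each side, are given first, with the stem-loop in capitals.
Hist1h1c stem-loop: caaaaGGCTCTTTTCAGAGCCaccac
Hist1h2ae stem-loop: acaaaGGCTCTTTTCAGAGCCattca
Hist3h2ba stem-loop: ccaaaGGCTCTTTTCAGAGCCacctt
Hist1h2ao stem-loop: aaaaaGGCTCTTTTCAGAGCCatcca
The transcript ends of the first 3 are shown next, with the poly(A) signal in capitals.
Hist1h1c end: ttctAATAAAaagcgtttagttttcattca
Hist1h2ae end: ccAATAAAtgggtcaatttttttcagattc
Hist3h2ba end: attAATAAAtttggttcaattttggccaca
The annotated transcript reached 840 bases past the stem-loop in Hist1h1c (linker histone H1.2; chr13:23738808-23740367, plus strand), 151 in Hist1h2ae (a core H2A; chr13:23570517-23571220, minus strand) and 169 in Hist3h2ba (a core H2B; chr11:58948920-58949533, plus strand). Hist1h2ao (H2A; chr13:21810465-21810944, plus strand) has no annotated extension, and neither poly(A) signal was found near its annotated end.

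A total of 6148 transcripts of these genes was counted over all kept cells. At least 1 transcript was seen for 64 genes, at least 20 for 31 genes, 1 to 19 for 33 genes, and none for Hist1h1t, Hist1h2ba, Hist1h4n and Hist3h2bb-ps. Hist1h1c gave 1219 transcripts, Hist1h1e (H1.4) 945, Hist1h2ao 545, Hist1h2ae 457, Hist3h2a (H2A) 416, Hist1h2bc (H2B) 411, Hist1h1b (H1.5) 288 and Hist1h2ak (H2A) 184, and these 8 genes held 72.6% of the total. The 21 genes with an annotated extension held 62.1% of all histone transcripts. A larger share of them reached 20 transcripts, at 14 of these 21 against 17 of the other 47.

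Some of these genes cannot be told apart with certainty by short reads. Over the last 500 bases of the transcript, the share of 50-base words also found in another gene was 93.5% for Hist1h2ao, 85.8% for Hist1h2an, 56.1% for Hist1h2ae and 52.3% for Hist1h2ak. It was 0% for Hist1h1c, Hist1h1a, Hist1h1b and Hist3h2a and 1.77% for Hist1h2bc. For Hist1h1e the share was 99.1%, because its 3′ part lies on the same strand inside the annotated span of Hist1h2be (H2B), so reads of this pair are uncertain. Hist3h2ba shared 21.5% with the pseudogene Hist3h2bb-ps, which was at 0 here, and Hist2h3c1 (H3) shared all its words with Gm20634.

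Cells with at least 1000 transcripts numbered 245 of 369 sorted wells, with 2 to 91 per library, and 707 of 1546 dissected wells, with 6 to 73 per library. Their summed transcripts per library were 3119 to 238770 among sorted HSC and 9032 to 313488 among dissected cells. The smallest sorted library, number 1, has only 2 cells, so that 1 transcript there equals 322 CPM (transcripts scaled to a fixed library total). The 12 HSC marker genes were all detected in sorted cells, at 4048 CPM together, against 477 CPM in dissected cells outside the erythroid class. Dissected cells were placed in classes by 9 marker lists that hold no histone and no globin gene, which made 264 erythroid cells, 218 myelocytes, 48 promyelocytes, 44 mature neutrophils, 43 eosinophils, 17 macrophages, 16 monocytes or dendritic cells, 12 B or plasma cells and 11 megakaryocytes, with 34 cells in none. No kept cell was a copy of another. No animal is named for any library, so each p-value reflects only how libraries vary, and that variation may be technical.

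**Figure D1:**
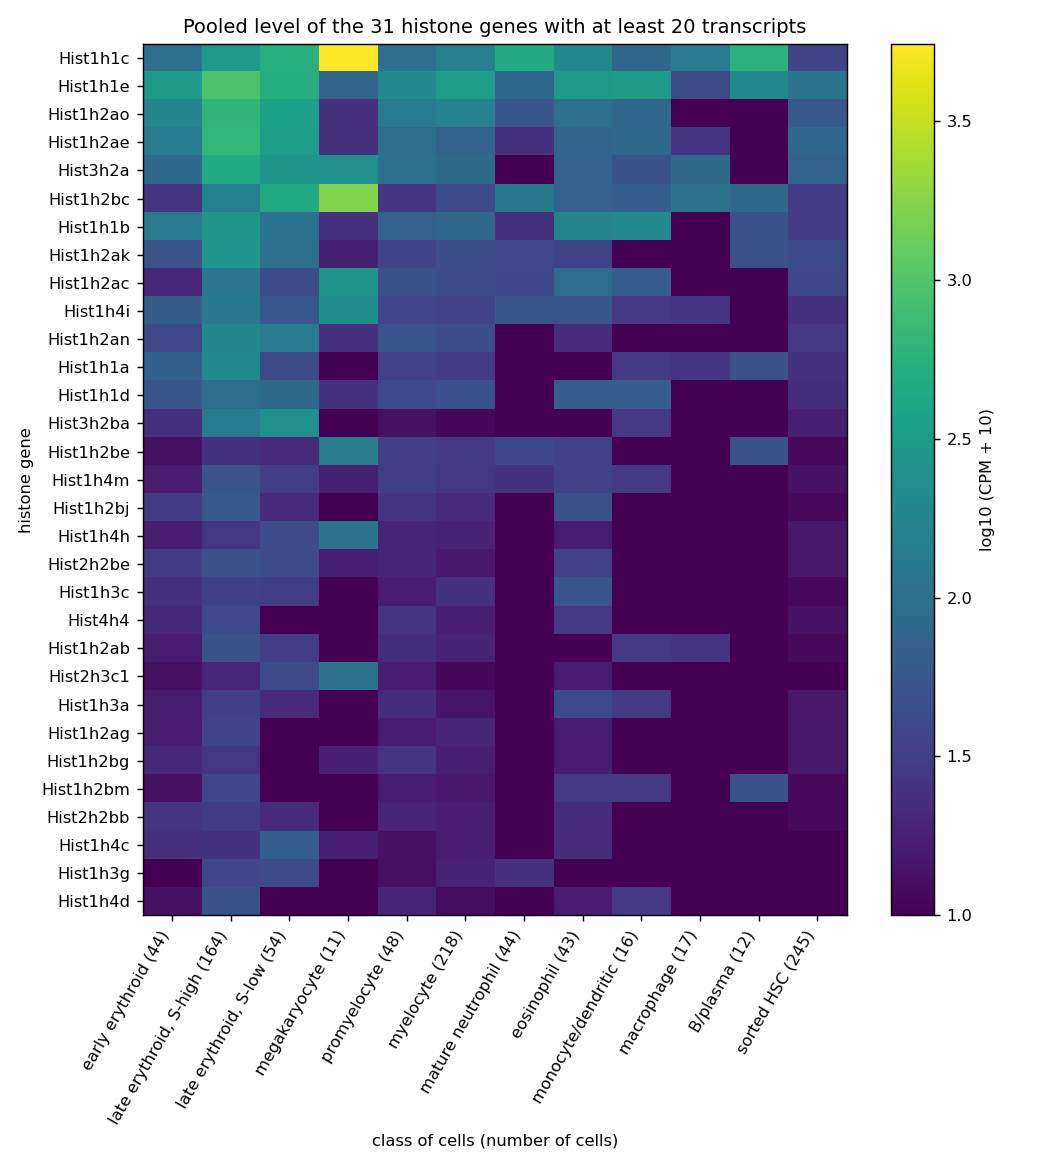
Pooled level of the 31 histone genes with at least 20 transcripts (rows) in each class of cells (columns, with the number of cells), as log10 of CPM plus 10. Hist1h1c and Hist1h2bc are brightest in the 11 megakaryocytes, most other genes are brightest in late erythroid cells, and the column of sorted HSC is dark.

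The summed level of all 68 genes differed widely between classes. Pooled over cells, it was 8434 CPM in megakaryocytes, 3527 CPM in erythroid cells, 1512 CPM in eosinophils, 1288 CPM in myelocytes, 1149 CPM in promyelocytes, 909 CPM in mature neutrophils, 549 CPM in sorted HSC and 399 CPM in macrophages. Within the erythroid class it was 1357 CPM in early cells, 5138 CPM in late cells with high expression of replication genes and 3551 CPM in late cells low in them. The make-up differed as well. H1 genes gave 66.4% of histone transcripts in megakaryocytes and 33.7% in the late erythroid cells high in replication genes, where H2A genes gave 47.1%, as the plot of levels by class shows gene by gene.

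Erythroid cells were set against all other dissected cells of the same 14 libraries. Of 8556 genes tested, 44.9% were called at an adjusted p under 0.05 (edgeR's quasi-likelihood test with a library block), 13.7% as higher, so calls were common in this comparison. Among the 31 histone genes tested, 12 rose in erythroid cells and 1 fell. Their median log2 fold change was 0.82, against -0.36 over all genes. Of the 12 genes that rose, 6 encode H2A.

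Hist1h2ae was at 0, 95.3 and 954 CPM (lowest, median and highest library) in erythroid cells and at 0, 44.8 and 183 CPM in other cells. It rose by 2.02 on the log2 scale (approximate SE 0.30, adjusted p = 3.28e-10) and was higher in erythroid cells of 11 of 14 libraries, though the ranges overlap. Hist3h2ba had the largest change of the 31 genes, 4.0 (SE 0.49, adjusted p = 6e-15), at 92.8 ± 74.2 CPM in erythroid and 6.63 ± 13.5 CPM in other cells (SD, n = 14 libraries each). It was higher in 13 of 14 libraries, and 6 transcripts of it were counted in the other cells of these libraries against 74 in erythroid cells. Of the H1 genes, Hist1h1a (H1.1) rose by 2.27 (SE 0.38, adjusted p = 1.66e-08), Hist1h1e by 1.14 (SE 0.22, adjusted p = 2e-06) and Hist1h1b by 1.14 (SE 0.28, adjusted p = 0.000199). The other genes that rose were the H2A genes Hist1h2ak (2.14), Hist1h2ab (1.54), Hist1h2an (1.30), Hist1h2ao (1.27) and Hist3h2a (1.09), the H2B gene Hist2h2be (1.38) and the H4 gene Hist1h4d (1.57). Hist1h2be was the gene that fell, at -1.44. Leaving out 1 library ended the call of Hist1h2ab for library 3, 4, 13 or 14, of Hist2h2be for 7, 10, 13 or 14, of Hist1h4d for 3, 4, 8, 10, 14, 16 or 17, and of Hist1h2be for 11.

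Hist1h1c, the most abundant of the genes, was not called, at 225 ± 124 CPM in erythroid cells and 478 ± 780 CPM in other cells (SD, n = 14, log2 fold change -0.47, adjusted p = 0.575). The other cells include megakaryocytes, whose levels are given further on. Hist1h2bc was likewise close between the arms, at 115 ± 93.9 and 119 ± 185 CPM (log2 fold change 0.20, adjusted p = 0.777).

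Erythroid cells were then split by stage, with neither histones nor globins used. Late cells, with at least as many transcripts of Slc4a1 (the band 3 anion exchanger of the red cell membrane) as of Car1 (carbonic anhydrase 1, an early erythroid gene), numbered 218, early cells 44, and 2 had neither gene. Both genes were seen in 113 of the 264 cells. Late cells were shallower, with a median of 1735 transcripts against 4869 in early cells, and globins took 15.4% of their transcripts against 1.09%. The comparison used 9 libraries with at least 3 cells of each stage.

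Histone genes of the H1, H2A and H2B families rose from early to late erythroid cells. All 14 histone genes that could be tested had positive fitted values, and 9 were called as rising, where 12% of 3701 genes were called higher and 26.4% in either direction. The median log2 fold change was 1.30 for the 14 genes and -0.24 over all genes. The largest changes were in 2 H2B genes that were near 0 in early cells. Hist1h2bc was at 0, 184 and 420 CPM (lowest, median, highest library) in late cells and at 0, 0 and 52.4 CPM in early cells, and rose by 3.37 (SE 0.63, adjusted p = 3.11e-06). Hist3h2ba was at 64.9, 184 and 254 CPM in late cells and at 0, 0 and 72.4 CPM in early cells, and rose by 3.04 (SE 0.65, adjusted p = 4.65e-05). Late cells were higher in 8 of 9 libraries for Hist1h2bc and in 9 of 9 for Hist3h2ba.

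Linker histones were detected at both stages, mostly at low counts in early cells. Early cells of the 9 libraries held 80 transcripts of Hist1h1e, 32 of Hist1h1b, 21 of Hist1h1c, 17 of Hist1h1a and 11 of Hist1h1d. Hist1h1c was at 138, 276 and 571 CPM in late cells and at 29.9, 64.3 and 252 CPM in early cells, a rise of 1.80 (SE 0.41, adjusted p = 0.000185). Hist1h1e was at 56.4, 689 and 1219 CPM in late cells and at 0, 281 and 707 CPM in early cells, a rise of 1.29 (SE 0.30, adjusted p = 0.000232). Each was higher in late cells of 8 of 9 libraries. Hist1h1b rose by 1.05 (SE 0.40, adjusted p = 0.038) and was higher in only 5 of 9. Its call was lost in 14 of 25 alternatives, where the adjusted p reached 0.988, among them those without library 9, 10, 11, 13 or 14. Hist1h1a and Hist1h1d (H1.3) had values of 1.16 and 1.32 that were not called (adjusted p = 0.0786 and 0.0731).

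Among H2A genes, Hist3h2a rose by 1.88 (SE 0.44, adjusted p = 0.000228), Hist1h2ak by 1.84 (SE 0.61, adjusted p = 0.0144) and Hist1h2ao by 1.0 (SE 0.37, adjusted p = 0.0305), each higher in 7 of 9 libraries. The call of Hist1h2ao was lost in 10 of 25 alternatives, where the adjusted p reached 0.712, among them those without library 9, 10, 13 or 15. Hist1h2ae was at 0, 160 and 746 CPM in late cells and at 0, 36.2 and 667 CPM in early cells. It rose by 1.27 (SE 0.43, adjusted p = 0.016) and was higher in 6 of 9 libraries, with groups that overlap. That call was lost with DESeq2, without the library block, without library 10, 13 or 14 and in 3 other settings, where the adjusted p reached 0.566. Hist1h4i (H4) and Hist1h2an were not called, at 1.04 and 1.25.

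**Figure D2:**
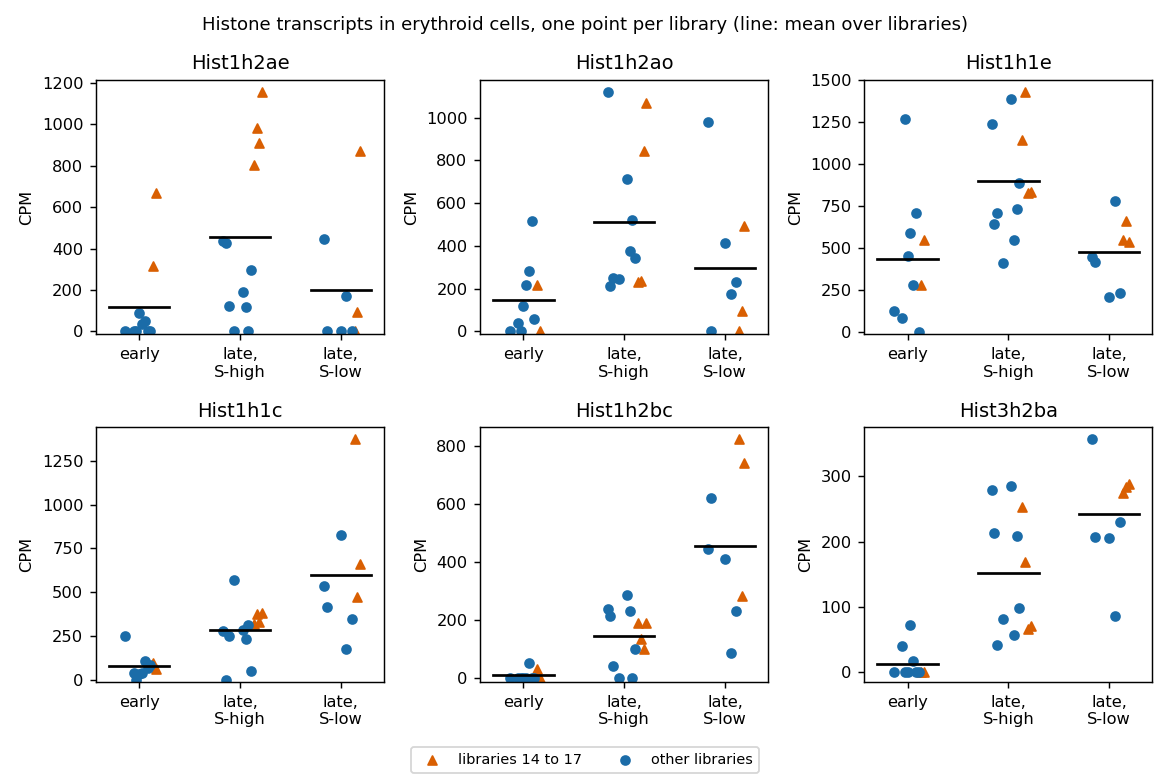
Level of 6 histone genes in CPM (vertical axes) in early erythroid cells and in late ones high or low in replication genes (horizontal axes); each point is 1 library with at least 3 such cells, the line is the mean over libraries, and triangles are libraries 14 to 17. Hist1h1c, Hist1h2bc and Hist3h2ba are lowest in early cells and highest in late S-low cells, while the highest Hist1h2ae values are triangles.

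Markers of other cells and of muscle moved with stage. The 10 myelocyte markers, of which 9, 10 and 10 were detected, summed to 870 CPM in early, 2206 CPM in late S-high and 4443 CPM in late S-low cells (S-high and S-low cells are those rich and poor in replication genes, defined further on). The 8 eosinophil markers summed to 267, 761 and 2380 CPM and the 14 muscle markers to 67.2, 654 and 4362 CPM in the same order. Leaving out cells with at least 1% of muscle transcripts left 9 of 13 histone genes called as higher, where 11.8% of 3630 genes were called higher and 26.9% in all. With globin rows left out of the totals it was 11 of 14, where 14.4% of 3696 genes were called higher and 27.6% in all. The part of the myelocyte and eosinophil markers was not tested.

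The highest erythroid Hist1h2ae levels came from 5 libraries. Erythroid cells of libraries 14, 15, 16 and 17 had 576, 723, 903 and 954 CPM, and those of library 3 had 418 CPM. In the other 9 libraries with at least 3 erythroid cells the level was at most 104 CPM, and it was listed at 0 in libraries 7, 8 and 12. Pooled over cells, Hist1h2ae in libraries 14 to 17 was at 413 CPM in early, 991 CPM in late S-high and 536 CPM in late S-low cells. The last value rests on library 16, with 869 CPM in 15 cells, and without it the late S-low level was 58.8 CPM, from 1 transcript in 13 cells. In the remaining libraries Hist1h2ae was at 31.2, 175 and 147 CPM in the same 3 stages.

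Early cells of libraries 14 to 17 numbered only 8. Before the rounding to whole transcripts that the tests use, in library 14 Hist1h2ae was at 317 CPM in early, 803 CPM in late S-high and 0 CPM in late S-low cells, and all early transcripts came from 1 of 3 cells. In library 15 it was at 670, 984 and 94.4 CPM. Late S-high cells were thus above early cells in both libraries. The late S-low values are listed below those of early cells but rest on few transcripts. In library 14 the value is 0 among 3654 transcripts of 3 cells, too few to show a level below early cells. In library 15 it is 1 transcript among 10616 in 8 cells. In library 9, outside this set, it was listed at 0 in late cells, against 89.4 CPM in early cells.

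This pattern was shared by some of the genes and not by others. Hist1h2an in erythroid cells was at 120, 194, 353 and 277 CPM in libraries 14, 15, 16 and 17 and at most 78.4 CPM in the others. Pooled over late S-high cells, Hist1h2ak was at 338 CPM in libraries 14 to 17 and 152 CPM in the others. Hist1h2ao was at 719 and 469 CPM, and for both genes the library values overlap. Hist3h2ba in late S-high cells was at 121 CPM in libraries 14 to 17 and 134 CPM in the others, and Hist1h2bc was at 158 and 140 CPM. Hist1h1e was at 978 and 757 CPM and Hist3h2a at 650 and 228 CPM. Over whole libraries, the erythroid cells of libraries 14 to 17 overlapped the others in replication-gene level (10823 to 13450.2 against 6593 to 17311.5 CPM), in globin share (7.56 to 18.4% against 1.52 to 19.5%) and in median depth (1604 to 2349 against 1189 to 2701 transcripts). In late cells alone the replication-gene level was 10284 to 14199.6 CPM in libraries 14 to 17 (median 13053) against 6706 to 11103 CPM in 9 others (median 9634), and libraries 14, 16 and 17 lay above every other. Libraries 14 to 17 hold 122 erythroid cells and the other 10 hold 136. The other cells of the same 4 libraries had 28.6 to 140 CPM of Hist1h2ae, within the range of the rest, but they mix classes. In myelocytes Hist1h2ae was at 139 and 117 CPM in libraries 15 and 17, against 0, 17.8 and 39.7 CPM in libraries 2, 11 and 4. In promyelocytes it was at 34.1 and 165 CPM in libraries 15 and 17, and at 0 in libraries 2, 4 and 11. What sets these libraries apart is not stated in the labels, and the cause was not tested.

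**Figure D3:**
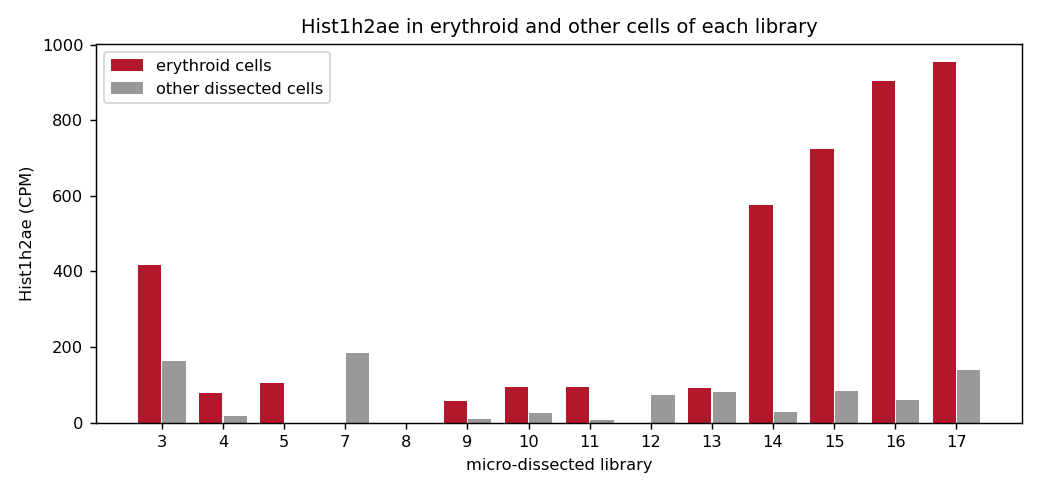
Hist1h2ae in CPM (vertical axis) in erythroid cells and in the other dissected cells of each library with at least 3 of both (horizontal axis, library number). Erythroid cells of libraries 14 to 17 stand at 576 to 954, library 3 at 418, and the rest at 104 or less.

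Without libraries 14 to 17, Hist1h2ae was no longer called in either comparison. The log2 fold change of erythroid against other cells was then 0.78 (adjusted p = 0.165) and that of late against early cells 1.79 (SE 0.73, adjusted p = 0.0536). For the gene group, 5 of 19 genes were then called as higher in erythroid cells and 1 as lower, where 9.37% of 7223 genes were called higher, 24% lower and 33.4% in all. The lower one was Hist1h1c (-0.80, adjusted p = 0.0398). In late against early cells 6 of 10 were called higher, where 13.1% of 2957 genes were and 25.6% were called in all, namely Hist1h2bc (3.47), Hist3h2ba (2.66), Hist3h2a (1.76), Hist1h1c (1.74), Hist1h1e (1.21) and Hist1h2ao (1.13).

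Stage was next separated from the cell cycle with 30 replication genes (Mcm2, Pcna, Rrm2 and others; no histones). Cells with at least 0.313% of their transcripts in this list, the median of dissected cells, are called S-high. This is a range and not a cell-cycle phase, and 24 of the 264 erythroid cells lie within 20% of the value. All 44 early cells were S-high, as were 164 of the 218 late cells. The comparison of stages is therefore partly one of replication-gene level too, and it was repeated among S-high cells alone.

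Among S-high cells alone, 10 of 13 histone genes rose in late cells, where 8.94% of 3153 genes were called higher. With the S arm as a covariate it was 10 of 14, where 8.49% of 3616 genes were called higher. As all early cells were S-high, the covariate fit has no stage contrast among S-low cells and is not an independent check. Hist1h2ae then rose by 1.58 (SE 0.44, adjusted p = 0.00403) among S-high cells and by 1.66 (SE 0.46, adjusted p = 0.00391) with the covariate. Hist1h2bc rose by 2.99, Hist3h2ba by 2.81, Hist1h1c by 1.52 and Hist1h1a by 1.41 among S-high cells. The replication genes themselves did not move as a group with stage, with 1 of 29 called higher and 3 lower, while 14 of 30 mitosis genes were called higher.

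S-high erythroid cells were set against S-low ones in 8 libraries. In this fit genes as a whole lay higher in S-high cells, with a median log2 fold change of 1.02 and 26.5% of 3665 genes called higher, 4.01% lower and 30.5% in all. Scaling by library totals instead of TMM gave a median of 0.66. Of 15 histone genes tested 1 was called, and it was lower. Their median was 0.77, below that of all genes.

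The gene that fell was Hist1h2bc, at 0, 92.7 and 259 CPM (lowest, median, highest library) in S-high cells and at 86.4, 429 and 823 CPM in S-low cells. Its log2 fold change was -1.68 (SE 0.49, adjusted p = 0.00547), with S-high cells lower in 7 of 8 libraries, and the call was lost without library 16. Hist1h1c was at 21.5, 210 and 408 CPM in S-high cells and at 173, 503 and 1372.5 CPM in S-low cells, lower in 8 of 8 libraries but not called (-0.97, adjusted p = 0.0622). Hist3h2ba was also lower in 8 of 8 libraries, at 90.2 ± 81.1 against 241 ± 79.9 CPM (SD, n = 8 each, -1.10, adjusted p = 0.11). These 3 genes, which rose with stage, thus had their highest erythroid level in S-low cells, all of which are late.

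Hist1h2ae, Hist1h1a, Hist1h1b and Hist1h1e had positive values, while Hist1h1d had -0.15 (adjusted p = 0.886). Set against the median of 1.02 over all genes in this fit, Hist1h2ae (1.09) was close to it and Hist1h1e (0.77) below it. Pooled over these libraries, Hist1h2ae was at 404 CPM in S-high and 364 CPM in S-low cells. Hist1h2ae was at 64.6, 257 and 920 CPM in S-high cells and at 0, 47.2 and 863 CPM in S-low cells, higher in 6 of 8 libraries (1.09, SE 0.48, adjusted p = 0.0703). Hist1h1a had 1.93 (adjusted p = 0.0527), Hist1h1b 1.31 (adjusted p = 0.0678) and Hist1h1e 0.77 (adjusted p = 0.12). With stage as a covariate these 4 genes passed the threshold, and no other histone gene did, where 11.7% of 3561 genes were called higher. The values were then 1.22 (SE 0.44, adjusted p = 0.0463) for Hist1h2ae, 2.27 (SE 0.78, adjusted p = 0.0318) for Hist1h1a, 1.77 (SE 0.54, adjusted p = 0.0136) for Hist1h1b and 1.25 (SE 0.36, adjusted p = 0.00788) for Hist1h1e. These 4 values were not set against the median of all genes in that fit. Hist1h2bc then had -1.17 (adjusted p = 0.0751). No early cell was S-low, so the covariate fit has no S contrast within early cells. In late cells alone, where 10.4% of 2228 genes were called higher and 2.65% lower, Hist1h1b was the 1 gene of 14 called (1.64, adjusted p = 0.0447). Hist1h2ae (1.07, adjusted p = 0.127), Hist1h1a (2.05, adjusted p = 0.0848) and Hist1h1e (0.93, adjusted p = 0.104) were not called there. With libraries 14 to 17 left out, none of 9 histone genes was called in the fit without a covariate. In that fit 13.5% of 2438 genes were called (11.7% higher, 1.85% lower). Of the 9 histone genes, 0 had an unadjusted p under 0.05 (edgeR). DESeq2 was not run on that subset of libraries.

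**Figure D4:**
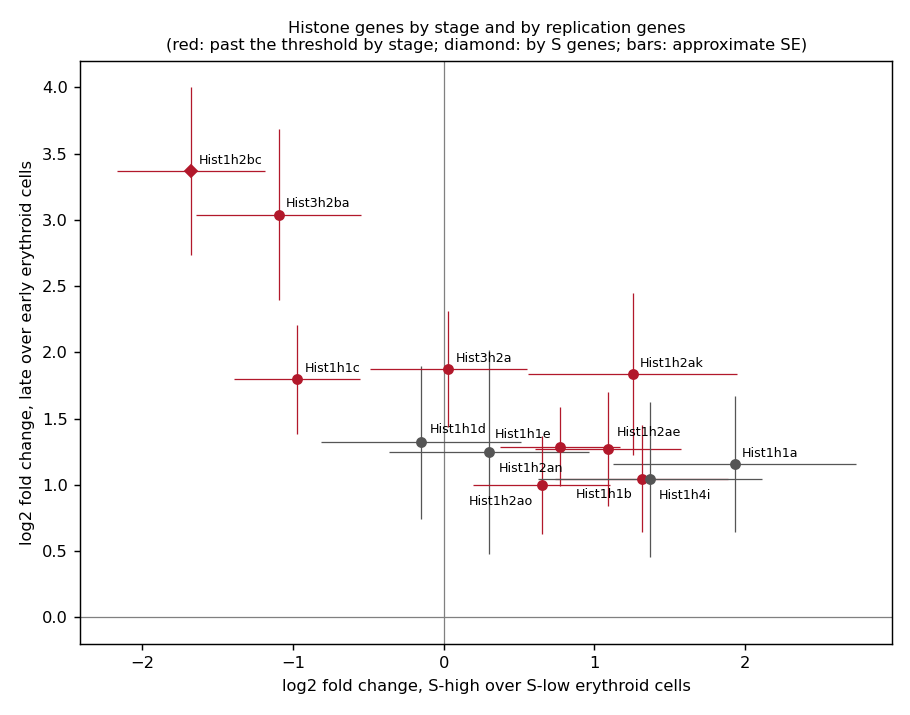
Log2 fold change of late over early erythroid cells (vertical axis) against that of S-high over S-low erythroid cells (horizontal axis) for the histone genes tested in both, with approximate SE. All genes lie above 0 on the stage axis; Hist1h2bc, Hist3h2ba and Hist1h1c lie at -1.68 to -0.97 on the S axis, and Hist1h1a, Hist1h4i, Hist1h1b, Hist1h2ak and Hist1h2ae lie at 1.09 to 1.93. The 2 axes share cells, and the median over all genes on the S axis is 1.02.

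Shares of cells with Hist1h2ae were compared at equal depth. With every cell thinned to 1000 tags, a transcript was seen in 5 of 44 early cells (11.4%, exact 95% interval 3.79 to 24.6%), 66 of 158 late S-high cells (41.8%, 34 to 49.9%) and 11 of 41 late S-low cells (26.8%, 14.2 to 42.9%). Without thinning the shares were 27.3%, 51.2% and 24.1%, which puts early above late S-low cells, at median depths of 4869, 1944 and 1483 transcripts. Within each set of libraries the intervals of neighbouring stages overlap. In thinned cells of libraries 14 to 17 it was seen in 3 of 8 early cells (37.5%, 8.52 to 75.5%), 52 of 85 late S-high cells (61.2%, 50 to 71.6%) and 7 of 19 late S-low cells (36.8%, 16.3 to 61.6%). In the others it was seen in 2 of 36 early cells (5.56%, 0.68 to 18.7%), 14 of 73 late S-high cells (19.2%, 10.9 to 30.1%) and 4 of 22 late S-low cells (18.2%, 5.19 to 40.3%). In mature neutrophils, which do not divide, it was seen in 0 of 39 thinned cells, which allows a share of cells with a transcript of up to 7.69% (9.03% by the exact interval), and in 1 of 44 cells (2.27%) without thinning, at a median depth of 1288. Among myelocytes it was seen in 6.48% of 216 thinned cells. These intervals cover counting error only.

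Outside the erythroid class, S-high cells were compared with S-low cells in 14 libraries, where 3.59% of 7629 genes were called higher, 12.3% lower and 15.9% in all. Of 19 histone genes, 4 rose and 2 fell, with a median log2 fold change of 0.40 against -0.18 over all genes. Hist1h2ao rose by 1.65 (SE 0.30, adjusted p = 1.11e-06), at 210 ± 133 CPM in S-high and 62 ± 94 CPM in S-low cells (SD, n = 14 each), and was higher in 13 of 14 libraries. Hist1h1a rose by 1.94 (adjusted p = 0.0223), Hist1h2ae by 1.03 (adjusted p = 0.0484) and Hist1h1e by 0.63 (adjusted p = 0.0412), of which Hist1h2ae lost its call in 17 of 29 alternatives. The 2 that fell were Hist1h2bc (-3.58, SE 0.43, adjusted p = 6.42e-15) and Hist2h3c1 (-2.48, adjusted p = 0.0342). None of the 11 megakaryocytes was S-high, and 10 of them are in the S-low arm compared here. Their part in the values of Hist1h2bc was not tested.

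Genes outside the 68 were followed as well. Among the replacement histones (H3f3a, H2afz, H2afx and others), 2 of 8 tested rose with stage. H2afx rose by 2.33 (SE 0.32, adjusted p = 2.8e-11) and H3f3a by 1.32 (SE 0.25, adjusted p = 3.14e-06). H3f3a had the highest mean level of the replacement histones, at 3516 CPM in early, 7877 CPM in late S-high and 8015 CPM in late S-low cells. H2afx was at 186, 986 and 965 CPM. H2afz, at 2686, 2840 and 916 CPM, rose instead in S-high against S-low cells, by 2.03 (SE 0.38, adjusted p = 3.8e-06), as did H3f3b (1.22, adjusted p = 0.00784).

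Of 21 genes of histone mRNA processing and chaperoning, 13 were tested by stage and 1 rose, the chaperone Asf1b (1.66, SE 0.31, adjusted p = 3.17e-06). By replication genes 12 were tested and 8 rose in S-high cells, among them Slbp (2.66, SE 0.52, adjusted p = 9.06e-06), Nasp (2.69, adjusted p = 0.00207) and Asf1a (1.46, adjusted p = 0.0418), which are a stem-loop binder and 2 chaperones. Slbp was at 369, 625.03 and 89.96 CPM in early, late S-high and late S-low cells. Late S-low cells thus had the lowest Slbp and the highest Hist1h1c, Hist1h2bc and Hist3h2ba of the 3 stages.

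The genes most like Hist1h2ae across 245 thinned erythroid cells, among 690 genes seen in at least 20% of them, were H2afx (Spearman's rho 0.42), the globin Hbb-b1 (0.36), the predicted gene Gm12657 (0.29), Tuba1b (0.27) and Slbp (0.25). Within the histone genes rho was 0.31 with Hist3h2a, 0.30 with Hist1h2an, 0.28 with Hist1h1e and 0.07 with Hist1h1c. It was 0.15 with the sum of the replication list and 0.19 with that of the mitosis list. The cells share libraries, and in counts this sparse such weak correlations are a description only.

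Megakaryocytes, the large polyploid cells that shed platelets, had the highest histone levels, with Hist1h1c and Hist1h2bc the most abundant genes. Both genes also rose with stage in erythroid cells. Only 11 cells in 8 libraries were in this class, at 1 to 3 cells per library, so that no test was made. They held 63.3% of all Hist1h1c transcripts of dissected cells and 57.1% of those of Hist1h2bc. Pooled, Hist1h1c was at 5506 CPM and Hist1h2bc at 1648 CPM. Hist1h1c was higher in megakaryocytes than in the other cells of the same library in 6 of 8 libraries, and Hist1h2bc in 6 of 8.

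The 11 cells were not alike. In the 6 cells with 6.40 to 14.4% of their transcripts in the megakaryocyte list (Pf4, Ppbp and others), Hist1h1c lay between 4351 and 9001 CPM. In the 5 cells with 1.42 to 4.92% it lay between 0 and 876 CPM. A single cell of library 10, with 339 Hist1h1c transcripts, gave 44.5% of those in the class, and 3 cells of library 14 gave 7364 CPM together. Hist1h2ac (H2A, 250 CPM), Hist3h2a (235 CPM), Hist1h4i (222 CPM), Hist1h2be (131 CPM), Hist1h4h (102 CPM) and Hist2h3c1 (94.8 CPM) were detected too. Hist1h4i and Hist2h3c1 were each higher than in the other cells of the library in 3 of 8 libraries. Pooled, Hist1h2ae, Hist1h1b and Hist1h2ao were at 14.5 CPM each. None of the 11 cells was S-high.

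Both Hist1h4i and Hist2h3c1 carry their own annotated extension, shown with the poly(A) signal in capitals.
Hist1h4i end: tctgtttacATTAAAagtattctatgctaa
Hist2h3c1 end: taatcccAATAAAaatttaacacactgcta
Their transcripts reach 330 and 1167 bases past the stem-loop. For Hist1h2bc (chr13:23684199-23692908, plus strand) the annotated transcript has 2 exons and holds no stem-loop letters.

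Granulocytes were compared stage by stage after their levels had been seen. Of 7 histone genes tested between myelocytes and promyelocytes in 5 libraries, 3 rose, where 8.22% of 3587 genes were called higher, 6.8% lower and 15% in all. Hist1h1c was at 107, 179, 187, 258 and 398 CPM in myelocytes and at 0, 0, 0, 68.1 and 82.4 CPM in promyelocytes. In these 5 libraries the groups do not overlap, and the log2 fold change was 2.27 (SE 0.54, adjusted p = 0.000394). Pooled over all 48 promyelocytes, Hist1h1c was at 91.5 CPM, from 29 transcripts, of which 11 came from these 5 libraries. Hist1h1e rose by 1.34 (adjusted p = 0.0167) and Hist1h2ao by 1.55 (adjusted p = 0.0458), each higher in 3 of 5 libraries. The median log2 fold change was 1.34 for the 7 genes and 0.03 for all.

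From myelocytes to mature neutrophils only 3 histone genes could be tested, in 4 libraries, and 2 fell, where 8.99% of 2392 genes were called lower, 4.35% higher and 13.3% in all. Hist1h1e was at 0, 0, 78.3 and 175 CPM in mature neutrophils and at 140, 263, 417 and 425 CPM in myelocytes, a change of -2.73 (SE 0.74, adjusted p = 0.00391). Hist1h2ao fell by 3.0 on the log2 scale (SE 0.90, adjusted p = 0.0109), at 0, 0, 78.3 and 87.6 CPM in mature neutrophils. Its level in myelocytes was 67.6 to 493.3 CPM. Hist1h1c went the other way, between 235 and 721 CPM in mature neutrophils against 142 to 197 CPM in myelocytes. The groups do not overlap, yet it was not called (1.20, SE 0.50, adjusted p = 0.0937).

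Most histone genes were lower in sorted HSC than in dissected cells. All 31 genes tested had a lower fitted level in sorted HSC and 17 were called as lower, where 12.5% of 9588 genes were called lower and 25% in all. The median log2 fold change was -2.20, against 0.03 over all genes. The count depends on single libraries. It was 14, 5, 12 and 6 without sorted library 1, 3, 4 and 5, where 8.75% of 9222 genes were called lower and 5.71% higher without library 3, and 9.39% of 9302 lower and 7.55% higher without library 5. DESeq2 called 6. Sorted and dissected cells differ in collection, libraries and possibly sequencer, so that cell type and these cannot be told apart. The dissected side is also a mixture that holds erythroid cells and megakaryocytes.

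Hist1h1c had the largest change, -4.16 (SE 1.14, adjusted p = 0.0107). It was at 0, 25.2, 42.8 and 22.2 CPM in sorted libraries 1, 3, 4 and 5, and its median over 17 dissected libraries was 207 CPM (0 to 1689 CPM). Hist1h2bc was at 0, 8.39, 8.55 and 44.4 CPM in sorted HSC against a median of 86.1 CPM in dissected libraries (-3.13, SE 1.04, adjusted p = 0.0314). Hist1h1e was at 322, 79.7, 188 and 72.2 CPM against a median of 348 CPM (-1.86, SE 0.60, adjusted p = 0.0192). The value of 322 CPM is a single transcript. Hist1h1e was the most abundant of the genes in sorted HSC, at 102 CPM pooled.

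Of the rest, Hist1h1b (-2.53), Hist1h1a (-1.98), Hist1h1d (-2.02), Hist3h2ba (-2.45), Hist1h2be (-3.40), Hist1h2bj (-3.10), Hist1h2ab (-2.64), Hist1h3c (-2.70), Hist1h4i (-2.20) and Hist1h4m (-2.51) fell, with adjusted p of 0.00437 to 0.0437. The H3 genes Hist2h3c1 and Hist1h3g and the H4 genes Hist1h4c and Hist1h4d were at 0 in all 4 sorted libraries. At a floor of 3 transcripts over the group, Hist2h3c1 was at least 2.03-fold lower in sorted HSC, Hist1h4c and Hist1h3g at least 1.81-fold and Hist1h4d at least 1.74-fold.

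Hist1h2ae was not among the genes that fell. It was at 966, 50.3, 154 and 38.9 CPM in the 4 sorted libraries, where the first value is 3 transcripts in 2 cells, and at 0 to 454 CPM, median 49.5 CPM, in dissected libraries. The log2 fold change was -0.88 (SE 0.96, adjusted p = 0.548). Hist1h2ao (-2.12, adjusted p = 0.0973), Hist3h2a (-1.54, adjusted p = 0.0798) and Hist1h2ak (-1.60, adjusted p = 0.232) were not called either.

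**Figure D5:**
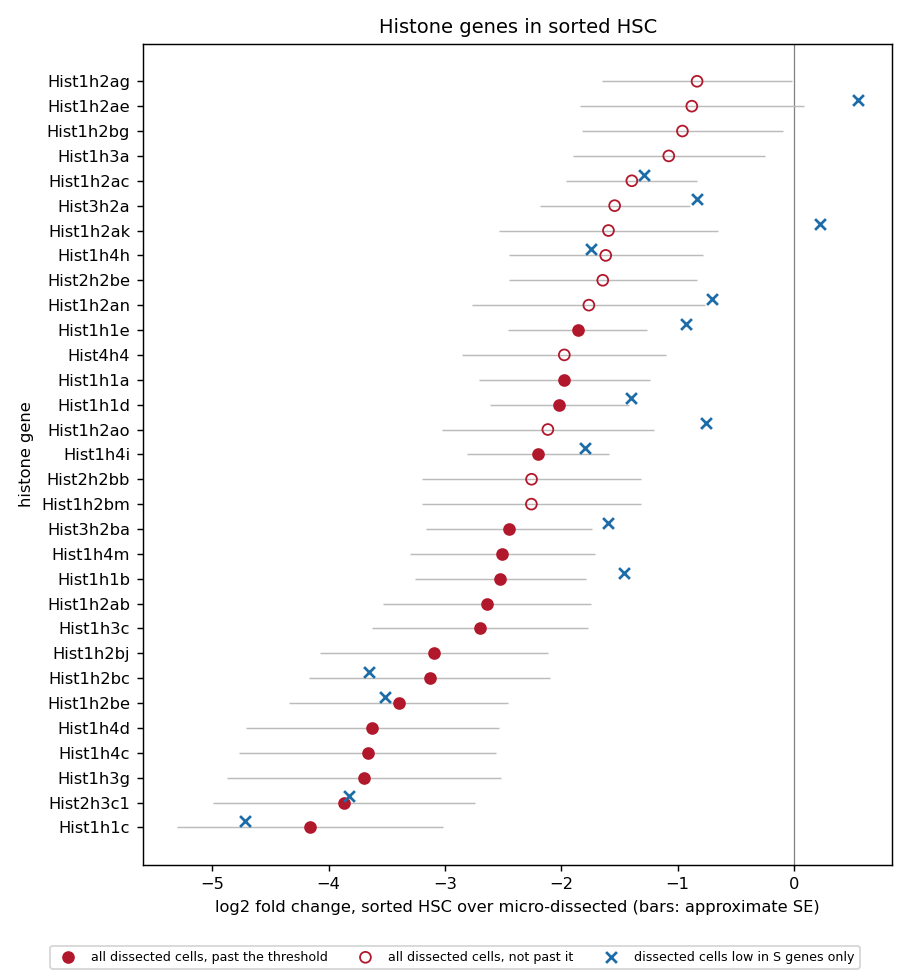
Log2 fold change of sorted HSC over dissected cells (horizontal axis) for 31 histone genes (rows); filled circles are past the threshold, bars are approximate SE, and crosses give the 16 genes testable against dissected cells low in replication genes. All circles lie left of 0, from -4.16 for Hist1h1c to -0.83 for Hist1h2ag, and the crosses of Hist1h2ae and Hist1h2ak lie right of it.

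HSC divide rarely, and 72 of the 245 sorted cells (29.4%) were S-high by the threshold of the dissected cells. Against S-low dissected cells only, 5 of 16 histone genes were called, all lower, where 11.2% of 8577 genes were. They were Hist1h1c (-4.72, SE 1.21, adjusted p = 0.00259), Hist1h2bc (-3.66, SE 0.76, adjusted p = 3.79e-05), Hist2h3c1 (-3.83), Hist1h2be (-3.52) and Hist1h4i (-1.80). Hist1h2ae was then at 0.55 (SE 0.54, adjusted p = 0.47). The S-low dissected cells include all 11 megakaryocytes. These held 63.3% of the dissected transcripts of Hist1h1c, 57.1% of Hist1h2bc, 46.6% of Hist2h3c1, 32.3% of Hist1h2be and 21.8% of Hist1h4i. The part of megakaryocytes in the 5 calls was not tested. The 30 mitosis genes all fell in sorted HSC and 9 of the 30 replication genes did. In the histone supply list Slbp fell by 1.55 (adjusted p = 0.00718) and Asf1b by 3.27 on the log2 scale (adjusted p = 1.7e-06).

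Among sorted HSC themselves, histone transcripts lay mostly in S-high cells. The 68 genes summed to 922 CPM in S-high and 329 CPM in S-low sorted cells. Hist1h2ae was at 171 CPM in S-high against 17.8 CPM in S-low cells, Hist1h2ao at 100.3 against 17.8 CPM, and Hist1h1e at 171 against 62.2 CPM. Each of these was higher in the S-high cells of all 3 sorted libraries with at least 3 cells. Hist1h1c, at 25 against 29.6 CPM, and Hist1h2bc, at 9.99 against 26.6 CPM, were not. These values rest on 34 and 6 transcripts of Hist1h2ae, so they are given as levels with no test.

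Many core histone genes lie in pairs that are read in opposite directions from a shared stretch of DNA. Hist1h2ae and Hist1h2bg (H2B) are such a pair, and they differed in level, with 457 against 26.1 transcripts over all cells. The 175 bases between them (chr13:23571221-23571395, RefSeq, GRCm38.p6) are printed on the minus strand, with motif matches in capitals. The letters run from the Hist1h2bg side towards Hist1h2ae, and the label names the pair and not this direction.
Hist1h2ae to Hist1h2bg: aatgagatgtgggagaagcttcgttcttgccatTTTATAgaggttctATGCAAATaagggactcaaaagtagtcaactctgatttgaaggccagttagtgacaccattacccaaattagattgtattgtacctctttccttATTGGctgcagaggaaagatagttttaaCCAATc
On either strand the stretch holds 2 matches to CCAAT, 1 to TATAAA and 1 to the octamer ATTTGCAT, none of which overlap. Over the 250 bases before the start of the 62 histone genes with a promoter entry, CCAAT was found in 82.3%, TATAAA in 46.8% and ATTTGCAT in 20.97%, against 33.9%, 12.4% and 1.6% of 32851 promoters of the same length. These matches describe the letters only.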

How the data were processed

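Single cells were profiled by CEL-seq. The values are estimated transcript counts per gene and cell, as deposited by the authors; BWA 0.6.2-r126 and mm10 are named in the submitters' processing notes, and further steps are not stated there. Of the deposited estimated counts, 99.9999% convert to whole tags within 0.01 under a correction for 256 tags. No cell column was unassigned. Identical columns, 33 among 1915 wells, are absent among kept cells. Doublets were not called, because wells were filled singly; an alternative leaves out the deepest 5% of cells.

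A cell needed 1000 transcripts or more and was assigned to the marker list with most transcripts, given at least 5 transcripts and 1% of the cell. Counts were summed per library and class, for arms of at least 3 cells, and rounded. Genes with at least 20 transcripts over a comparison were tested by edgeR 4.0.16 (R 4.3.3, limma 3.58.1), with TMM factors, a quasi-likelihood test and Benjamini-Hochberg adjustment at 0.05; this minimum replaced a stricter filter that left few histone genes. Comparisons within libraries have a library block. SEs are approximated from the F statistic. The fit was tested on simulated data. DESeq2 1.42.0 was an alternative. Levels and figures used Python 3.11.15, pandas 2.3.3, numpy 2.4.6 and scipy 1.17.1. Full statistics are given for the 8 genes with the highest mean level, Hist1h2ae and the genes past the threshold. The histone genes and gene lists were chosen with earlier results of these data known, and the granulocyte comparisons after levels had been seen. In all, 1 sorted and 1 dissected sample are not in the table used.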

Additional observations from a re-analysis of the deposited data

Results flagged for a closer look

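Within a group of 4 to 10 libraries, 10 values stood far from the rest by Dixon's criterion. Its rate of about 1 in 20 groups by chance holds for normal values, which counts this sparse are not. Where all other libraries are at 0, a single transcript is enough to meet it. In sorted HSC, library 1 with 2 cells stood apart for Hist1h2ae (966 CPM, 3 transcripts), Hist1h1b (322 CPM, 1 transcript) and Hist1h2bj (322 CPM, 1 transcript). Sorted library 5 stood apart for Hist1h4m (11.1 CPM), Hist1h2be (5.56 CPM) and Hist1h3c (5.56 CPM), and sorted library 3 for Hist1h2ab (4.19 CPM), where the other sorted libraries were at 0. In early erythroid cells, Hist1h1c was at 252 CPM in library 4, with 29.9 to 105 CPM in the others, and Hist1h2ae was at 667 CPM in library 15, with 0 to 312 CPM in the others. In promyelocytes Hist1h2ae was at 165 CPM in library 17, with 0 to 34.1 CPM in the others. The causes were not tested.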

How the results depend on the processing

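Counts of histone genes past the threshold were 17 in sorted HSC against dissected cells, 13 in erythroid against other cells, 9 in late against early erythroid cells, 1 in S-high against S-low erythroid cells, 6 in other S-high against S-low cells, 3 in myelocytes against promyelocytes and 2 in mature neutrophils against myelocytes. In the same order of comparisons, leaving out 1 library at a time gave 5 to 14, 10 to 15, 6 to 11, 1 to 4, 3 to 7, 1 to 3 and 0 to 2. The number of histone genes tested and the share of all genes called also vary with the setting. A change in these counts alone is therefore not a result about the histone genes. With DESeq2 the counts were 6 in sorted HSC, 8 in erythroid, 2 in S-high erythroid, 3 in other S-high, 1 in myelocytes and 0 in mature neutrophils. With edgeR's default low-count filter they were 4 in sorted HSC, 2 in erythroid, 1 in late erythroid, 0 in S-high erythroid and 1 in other S-high cells, because few histone genes were tested. A minimum of 2000 transcripts per cell gave 9, 2 in late erythroid, 0 in S-high erythroid and 3 in other S-high cells. A minimum of 500 gave 10 in S-high erythroid cells and 7 in mature neutrophils. Without libraries 14 to 17 they were 9, 6, 0 in S-high erythroid, 3 in other S-high and 1 in myelocytes. Against dissected cells low in replication genes, 5 remained below in sorted HSC. Without the deepest 5% of cells the counts were 1 in late erythroid, 2 in other S-high and 1 in myelocytes, and with at least 5 cells per arm 0 in late and 0 in S-high erythroid cells. S-high erythroid cells had 3 called with library totals, with relative log expression factors or without the low-count filter, 2 without globin rows, without muscle-marked cells or with a gate of 3%, and 4 without the first 5 libraries, with mitosis genes added to the list or with stage as a covariate. Other S-high cells had 3 without the low-count filter or the first 5 libraries. Myelocytes had 1 with library totals or without the low-count filter, and 0 with a gate of 3%. Library numbers pair nothing across arms except that both arms share a library; with no replicate block the counts were 2 in S-high erythroid cells and 1 in myelocytes, and within 1.5 times in the others. Signs reversed for Hist1h2ae in sorted HSC, at 0.021 with a minimum of 2000 transcripts, 0.55 against cells low in replication genes and 0.32 without libraries 14 to 17, for Hist1h2an in erythroid cells (-0.45 without libraries 14 to 17) and for Hist1h2bc in S-high erythroid cells (1.41 with mitosis genes added). The causes were not tested. The gate of 3% in late against early cells and the minimum of 2000 in mature neutrophils could not be fitted, and no early cell was S-low. Library totals changed the split of all calls in sorted HSC to 2298 higher and 956 lower, against 1198 and 1201.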
